A study of Mus musculus with 54 samples.

Results

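The 9 genes described here are Mpo, Prtn3, Elane, Ctsg, Ltf, Camp, Lyz2 and Lcn2, which encode proteins that neutrophils store in their granules, and Ms4a3, a membrane protein of the progenitors that make them. They are 9 of the 19920 genes measured with a probe set that is annotated to exactly 1 symbol. Each of the 9 had 1 such probe set, so no choice among probe sets was needed. The genes were selected by name with earlier results of these arrays known, the rise of Lcn2 in the unstimulated CIR-1 line among them. Differences between lines on the unstimulated arrays are therefore given as a description. Of their tests the text gives counts of calls alone, beside the share over all genes, and reads nothing from them. Adjusted p values are given for the GFP-PFC arrays and for the responses to stimulation. The GFP-PFC arrays are of the same lines, so their p values between lines are not independent of that selection.

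The cells were Ba/F3-gp130, a mouse pro-B cell line that carries the signalling chain gp130 and needs Hyper-IL-6, in which interleukin-6 is joined to the soluble form of its receptor, to grow. Parental cells without a construct were compared with CIR-1, CIR-2 and CIR-3, 3 lines that each carry a Cargo Internalization Receptor construct, to see what the constructs do to the cells. All cells were grown in DMEM with 10% FCS and 10 ng/ml Hyper-IL-6, washed 4 times in PBS and held without serum for 3 h. Each of the 4 lines was measured unstimulated and after 1 h with 50 µl/ml of a perfluorocarbon emulsion with GFP (GFP-PFC), and parental cells also after 1 h with 100 ng/ml Hyper-IL-6. This gave 9 groups of 3 arrays, 27 in all. The sources used here do not say which promoter drives the constructs, whether a CIR line is 1 clone, or whether the 3 arrays of a group are separate cultures, so the p values measure only the spread between these arrays. Construct and line cannot be told apart, because each construct was present in 1 line.

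Neutrophil granules are filled in waves as the cell matures. Azurophil granules, made at the promyelocyte stage, hold myeloperoxidase and the serine proteases proteinase 3, neutrophil elastase and cathepsin G. Specific granules follow and hold lactoferrin, the cathelicidin and lipocalin 2, while lysozyme is spread over several granule types. PU.1, an ETS-family factor, and C/EBP factors drive much of this programme, and Lcn2 can also be induced outside neutrophils by inflammatory signals.

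Promoter sequences are shown for Mpo, Lcn2 and Lyz2, the 3 genes whose group means spanned at least 1 on the log2 scale, so that the stretches upstream of genes with different line patterns can be set side by side. Each run holds the 250 bases before the RefSeq gene start, 5′ to 3′ in the direction of the gene, in GRCm38.p6. Mpo lies on the plus strand and its window is chr11:87793534-87793783. Lcn2 lies on the minus strand with the window chr2:32387740-32387989, and Lyz2 on the minus strand with chr10:117282273-117282522. Capitals mark a match to AGGAAGT, an ETS-type core that PU.1 can bind, in Mpo and, as its reverse complement, in Lyz2, and a match to TTGCNNAA, a C/EBP-type core, in Lcn2.
Mpo: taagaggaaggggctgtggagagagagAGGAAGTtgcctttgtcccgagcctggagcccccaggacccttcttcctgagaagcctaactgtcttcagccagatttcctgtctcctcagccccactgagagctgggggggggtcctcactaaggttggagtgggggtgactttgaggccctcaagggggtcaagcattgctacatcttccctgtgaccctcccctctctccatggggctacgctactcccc
Lcn2: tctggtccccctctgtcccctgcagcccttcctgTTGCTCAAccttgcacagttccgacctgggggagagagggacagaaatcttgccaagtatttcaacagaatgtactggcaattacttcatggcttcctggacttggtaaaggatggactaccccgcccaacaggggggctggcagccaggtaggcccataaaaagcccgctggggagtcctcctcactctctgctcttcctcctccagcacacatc
Lyz2: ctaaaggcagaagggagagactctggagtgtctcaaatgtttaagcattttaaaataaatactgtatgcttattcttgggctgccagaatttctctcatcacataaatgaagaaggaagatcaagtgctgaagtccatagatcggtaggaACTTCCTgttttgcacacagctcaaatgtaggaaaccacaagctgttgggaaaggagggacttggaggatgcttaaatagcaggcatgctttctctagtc

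All 9 genes were matched to a RefSeq promoter. AGGAAGT was found in 5 of the 9 windows of 250 bases, those of Mpo, Prtn3, Elane, Ctsg and Lyz2, and in 7.69% of all 32851 such windows. TTGCNNAA was found in 2 of the 9, Ltf and Lcn2, and in 9.56% of all windows. Both strands were searched, and neither motif overlaps the other in these windows. The AGGAAGT match began at position -223 from the gene start in Mpo, -206 in Ctsg, -94 in Prtn3, -84 in Elane and -100 in Lyz2. The 27 bases around the match in the 3 azurophil protease genes, with the match in capitals, show that the flanks differ. They lie at chr10:79879563-79879589 (plus strand) for Prtn3, chr10:79886218-79886244 (plus strand) for Elane and chr14:56102764-56102790 (minus strand) for Ctsg.
Prtn3: aactggaaggAGGAAGTgggacccaca
Elane: tgtcccagggAGGAAGTagggctgtgg
Ctsg: gaggaagaaaAGGAAGTagtcacctgt

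Values are log2 signals as deposited, differences are on the log2 scale, and a gene is called changed at an adjusted p below 0.05 in limma. On every one of the 27 arrays all 9 genes lay above the lower quartile of that array, which ran from 6.218 to 6.311. Signals of different probe sets are not compared with each other. Correlations between arrays of the same group, across genes, ran from 0.9925 to 0.9988. Of 14 listed pro-B cell markers 13 were measured, and the label holds only in part. The B cell receptor chains Cd79a and Cd79b had group means of 9.52 to 10.09 and 9.91 to 10.22, and the surrogate light chain gene Vpreb2 8.78 to 8.95. Vpreb1, Igll1 and Pax5 had 7.01 to 7.16, 7.40 to 7.55 and 7.17 to 7.33, above the lower quartiles. Ebf1, Rag2, Dntt, Il7r and Cd24a stayed at or below 6.09 in every group, under the lower quartiles. Spi1, the gene of PU.1, had group means of 12.24 to 12.50, and the proteoglycan gene Srgn of 14.25 to 14.29. Other genes listed with these as granulocyte factors or azurophil genes ranged from bright to dim. Myb had 12.72 to 13.13, Plac8 12.68 to 12.94 and Ctsc 12.04 to 12.35. At the dim end Gfi1 had 7.72 to 7.87, Irf8 7.56 to 7.77 and Bpi 6.41 to 6.52. These are bulk measurements, so more cells with a transcript and more transcript per cell cannot be told apart.

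**Figure D1:**
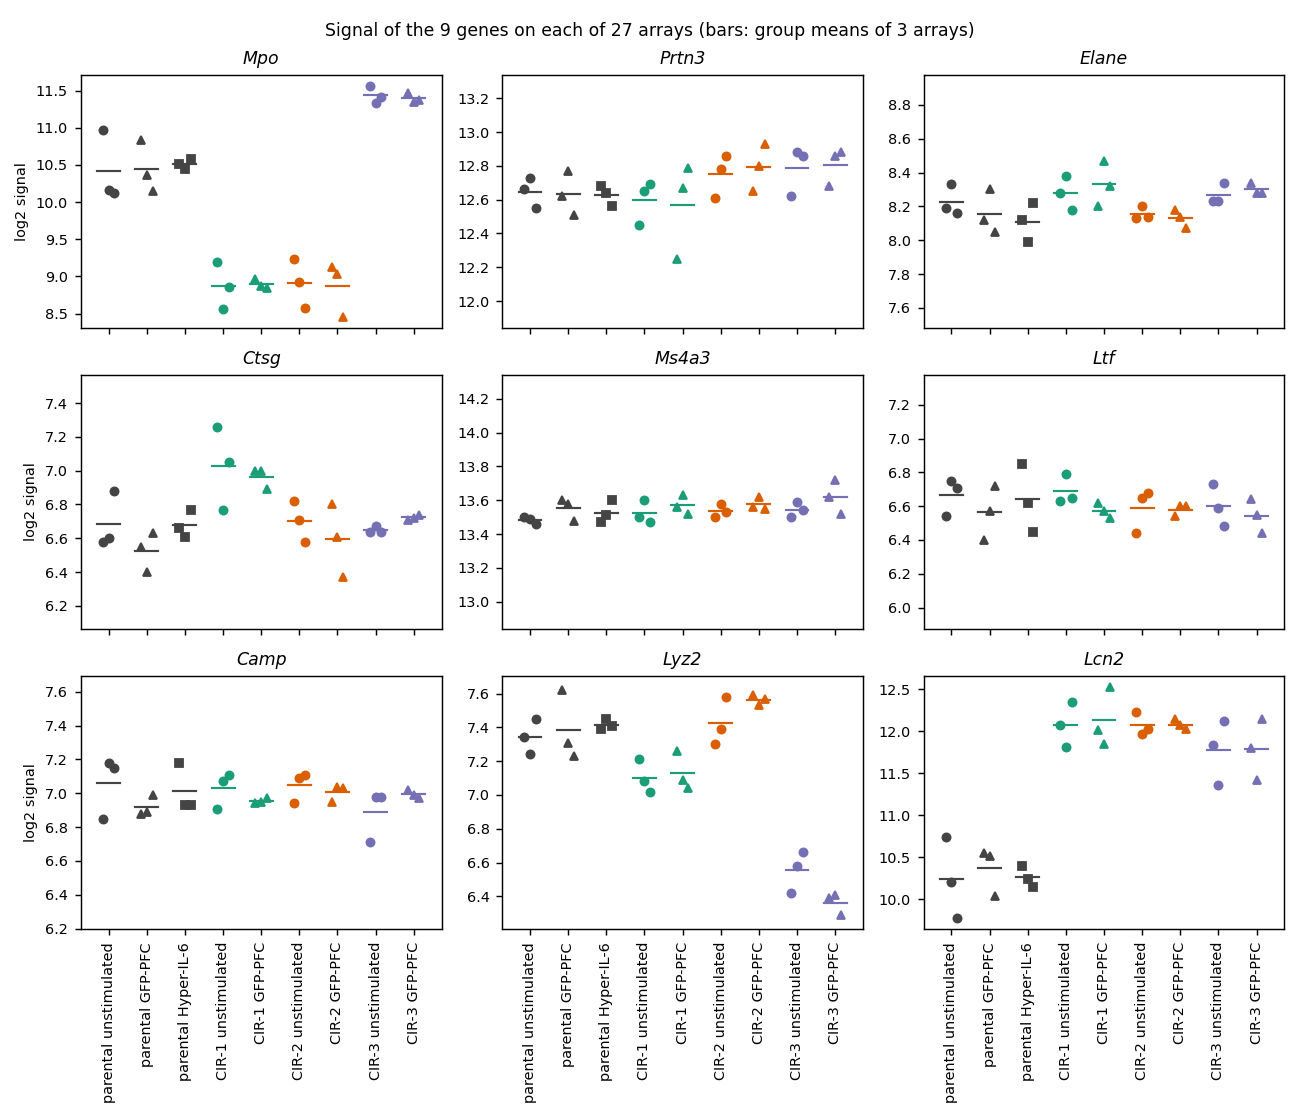
The 9 panels show the log2 signal (vertical axis, a separate range for each gene) on each of the 27 arrays, by group along the horizontal axis. Circles are unstimulated, triangles GFP-PFC and squares Hyper-IL-6 arrays, colours are the lines and bars the means of 3 arrays. Mpo, Lyz2 and Lcn2 move by line, with Lcn2 between 9.78 and 10.74 in parental cells and between 11.36 and 12.52 in the CIR lines, while Ms4a3 stays between 13.46 and 13.72.

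Mpo, the enzyme that makes hypochlorous acid from hydrogen peroxide, separated the lines in both directions. It was lower in CIR-1 and CIR-2 and higher in CIR-3 than in parental cells. On the GFP-PFC arrays the parental values were 10.84, 10.36 and 10.15. CIR-1 gave 8.97, 8.87 and 8.85, and CIR-2 gave 9.13, 9.03 and 8.46. CIR-3 gave 11.47, 11.35 and 11.37. No array of one of these lines reached the range of parental cells, and CIR-1 and CIR-2 overlapped each other.

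The fitted fall in Mpo was 2.935-fold in CIR-1 (difference -1.55, SE 0.209, adjusted p = 5.42e-05) and 2.979-fold in CIR-2 (-1.57, SE 0.209, adjusted p = 4.98e-05). The rise in CIR-3 was 1.931-fold (0.95, SE 0.209, adjusted p = 0.0164). Between CIR-3 and CIR-1 the difference was 2.50, or 5.667-fold (adjusted p = 3.01e-08), and between CIR-3 and CIR-2 it was 2.52, or 5.752-fold (adjusted p = 2.54e-08). CIR-2 minus CIR-1 was -0.02, with a 95% interval from -0.45 to 0.41. The order was therefore CIR-3, parental, then CIR-1 and CIR-2, which did not differ beyond their spread. The rise in CIR-3 over parental cells was the less secure step. It missed the threshold when parental array 4 (adjusted p = 0.0948) or 6 (0.143) or CIR-3 array 2 (0.0781), 4 (0.0543) or 6 (0.0572) was left out, with differences between 0.80 and 0.97.

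The unstimulated arrays, described without a test, had the same order. Parental cells gave 10.97, 10.16 and 10.12, CIR-1 gave 9.19, 8.56 and 8.86, CIR-2 gave 9.24, 8.93 and 8.57, and CIR-3 gave 11.56, 11.33 and 11.41. Parental array 1 stood above the other two parental arrays in this gene. Against parental cells CIR-1 differed by -1.55, CIR-2 by -1.51 and CIR-3 by 1.02.

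Exon-level probe sets of the same arrays showed where along the transcript the differences lay. On the GFP-PFC arrays all 14 Mpo probe sets were lower in CIR-1 (median -1.58, range -1.98 to -0.91) and in CIR-2 (median -1.53, range -2.08 to -1.05). All 14 were higher in CIR-3 (median 0.89, range 0.58 to 1.27). The shift thus ran over every exon-level probe set of the gene. Exon probe sets come from the same arrays and are no further replicates.

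**Figure D2:**
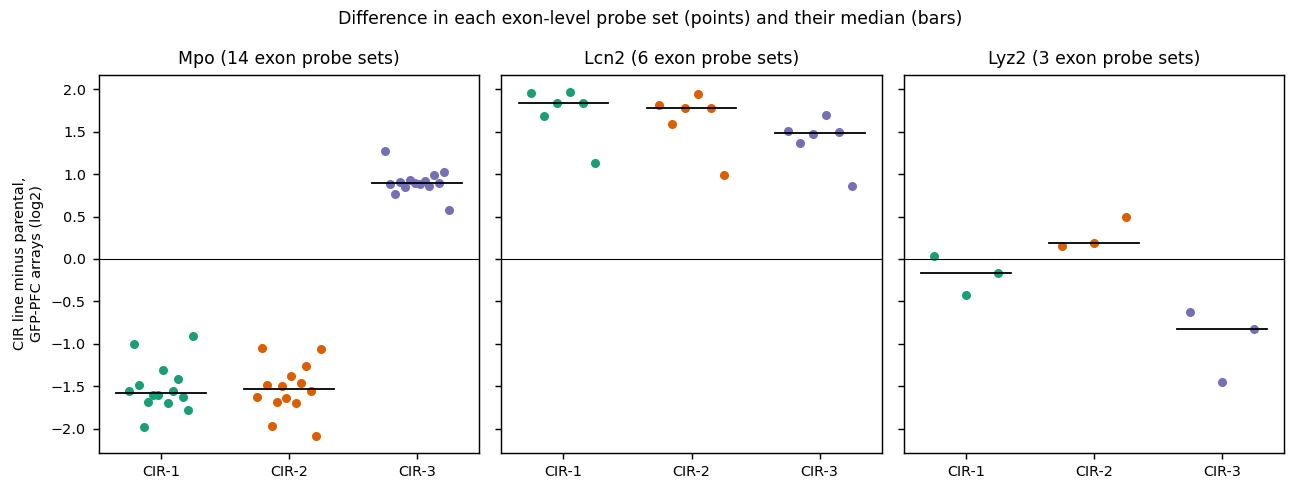
Each point is 1 exon-level probe set of Mpo, Lcn2 or Lyz2, its height the CIR line minus parental difference on the GFP-PFC arrays (log2), and each bar is the median of the points. All 14 Mpo points lie below 0 in CIR-1 and CIR-2 and above 0 in CIR-3, and all 6 Lcn2 points lie above 0 in the 3 lines.

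The other azurophil genes did not follow Mpo. Ctsg, the gene of cathepsin G, was the one of them with a call. Its GFP-PFC values were 6.55, 6.40 and 6.63 in parental cells and 7.0, 7.0 and 6.89 in CIR-1, without overlap. The rise in CIR-1 was 1.354-fold (0.44, SE 0.109, adjusted p = 0.0364), opposite in sign to Mpo in that line. CIR-2 (6.80, 6.61 and 6.37) and CIR-3 (6.71, 6.72 and 6.74) were not called, at 0.06 (95% interval -0.16 to 0.29) and 0.20 (-0.03 to 0.42). All 6 Ctsg exon probe sets were higher in CIR-1 than in parental cells on these arrays, with a median of 0.59. The call did not survive leaving out any 1 of the parental arrays 2 (adjusted p = 0.101) and 4 (0.224) or of the CIR-1 arrays 2 (0.127), 4 (0.145) and 6 (0.0622). It was also lost without all arrays numbered 1 and 2 (0.0879) and after quantile normalization (0.0939).

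On the unstimulated arrays Ctsg was at 7.26, 6.77 and 7.05 in CIR-1 and at 6.58, 6.60 and 6.88 in parental cells, so these groups overlapped. CIR-2 gave 6.82, 6.71 and 6.58, and CIR-3 gave 6.64, 6.67 and 6.64. All of these values lie in the dim range near the lower quartile of the arrays, where background compresses differences in RNA.

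Prtn3 and Elane encode proteinase 3 and neutrophil elastase, and lie next to each other in the genome. Prtn3 was bright and even, with a lowest array of 12.25, a median of 12.68 and a highest of 12.93 over the 27. Its lowest value was CIR-1 array 2, where the other CIR-1 GFP-PFC arrays read 12.67 and 12.79. Elane ran from 7.99 to 8.47 with a median of 8.20. After GFP-PFC, Prtn3 differed from parental cells by -0.06 in CIR-1 (95% interval -0.30 to 0.18), 0.16 in CIR-2 (-0.07 to 0.40) and 0.17 in CIR-3 (-0.06 to 0.41). Elane differed by 0.17 (0.01 to 0.33), -0.03 (-0.19 to 0.13) and 0.14 (-0.02 to 0.30), and the adjusted p of the first was 0.557. These intervals leave room for differences of up to 0.41 but not for one of the size seen in Mpo.

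Ms4a3, a membrane protein of granulocyte and monocyte progenitors, had the narrowest range of the 9 genes. Its 27 values ran from 13.46 to 13.72, and its differences from parental cells on the GFP-PFC arrays were 0.02, 0.02 and 0.07, with 95% intervals inside -0.10 and 0.19. The highest value on any array was 14.856, so the probe set lies near the top of the scale, where a change in RNA can be compressed.

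Lcn2, which binds bacterial siderophores and so withholds iron, was higher in all 3 CIR lines. On the GFP-PFC arrays parental cells gave 10.55, 10.52 and 10.04. CIR-1 gave 12.01, 11.85 and 12.52, CIR-2 gave 12.14, 12.07 and 12.02, and CIR-3 gave 11.80, 11.42 and 12.14. The lowest CIR array lay above the highest parental array, and the CIR lines overlapped one another.

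The rise in Lcn2 was 3.372-fold in CIR-1 (1.75, SE 0.222, adjusted p = 2.47e-05), 3.269-fold in CIR-2 (1.71, SE 0.222, adjusted p = 3.74e-05) and 2.675-fold in CIR-3 (1.42, SE 0.222, adjusted p = 0.000395). CIR-3 minus CIR-1 was -0.33 (95% interval -0.79 to 0.13), CIR-3 minus CIR-2 -0.29 (-0.75 to 0.17) and CIR-2 minus CIR-1 -0.04 (-0.50 to 0.42). The order among the CIR lines is therefore not resolved. All 6 Lcn2 exon probe sets were higher in every CIR line, with medians of 1.84, 1.78 and 1.49. These calls held in every alternative setting that was run.

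On the unstimulated arrays, whose results were known when Lcn2 was chosen, parental cells gave 10.74, 10.21 and 9.78. CIR-1 gave 12.07, 11.81 and 12.35, CIR-2 gave 12.23, 11.96 and 12.03, and CIR-3 gave 11.84, 11.36 and 12.12. The differences were 1.84, 1.83 and 1.53. The GFP-PFC arrays are other arrays of the same lines. Unstimulated and GFP-PFC arrays of a line with consecutive numbers deviated together, so the GFP-PFC arrays are not a fully separate experiment.

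Ltf and Camp, the genes of lactoferrin and the cathelicidin that share the specific granule with lipocalin 2, stayed dim. Ltf ran from 6.40 to 6.85 over the 27 arrays, with a median of 6.60, and Camp from 6.71 to 7.18, with a median of 6.98. After GFP-PFC, Ltf differed from parental cells by 0.01, 0.02 and -0.02 and Camp by 0.03, 0.09 and 0.07 in CIR-1, CIR-2 and CIR-3, with no call. The 95% intervals ran from -0.22 to 0.22 in Ltf and from -0.15 to 0.27 in Camp. The 19 Ltf exon probe sets were divided, with 12 higher and 7 lower in CIR-1. At this level a low transcript and background cannot be told apart.

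Lyz2, lysozyme of granulocytes and macrophages, had another pattern, with a fall in CIR-3. On the GFP-PFC arrays parental cells gave 7.62, 7.31 and 7.23, CIR-1 7.26, 7.09 and 7.04, CIR-2 7.59, 7.53 and 7.57, and CIR-3 6.39, 6.41 and 6.29. The CIR-3 values lay below all others, close to the lower quartile of the arrays, where background compresses folds. CIR-3 minus parental was -1.02, or 2.032-fold lower (SE 0.093, adjusted p = 9.57e-08). CIR-3 was also lower than CIR-1 (difference -0.77, adjusted p = 1.23e-05) and CIR-2 (difference -1.20, adjusted p = 6.85e-09). The 3 Lyz2 exon probe sets were lower in CIR-3 than in parental cells, by 0.83 at the median.

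CIR-1 and CIR-2 differed from parental cells in Lyz2 by -0.26 (95% interval -0.45 to -0.06, adjusted p = 0.28) and 0.18 (-0.01 to 0.37, adjusted p = 0.799). CIR-2 minus CIR-1 was 0.43 (SE 0.093, adjusted p = 0.0296). That call was lost when CIR-1 array 4 (adjusted p = 0.161) or 6 (0.198) or CIR-2 array 2 (0.125), 4 (0.0878) or 6 (0.152) was left out. On the unstimulated arrays parental cells gave 7.34, 7.24 and 7.45, CIR-1 7.21, 7.08 and 7.02, CIR-2 7.30, 7.39 and 7.58, and CIR-3 6.42, 6.58 and 6.66, again with CIR-3 lowest. Lyz1, the next gene along the chromosome and a near-identical copy, read 6.87 in parental GFP-PFC cells and differed in CIR-3 by -0.24 (adjusted p = 0.728). Signal of one copy on the probes of the other cannot be separated, so the Lyz2 values are uncertain in that respect.

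**Figure D3:**
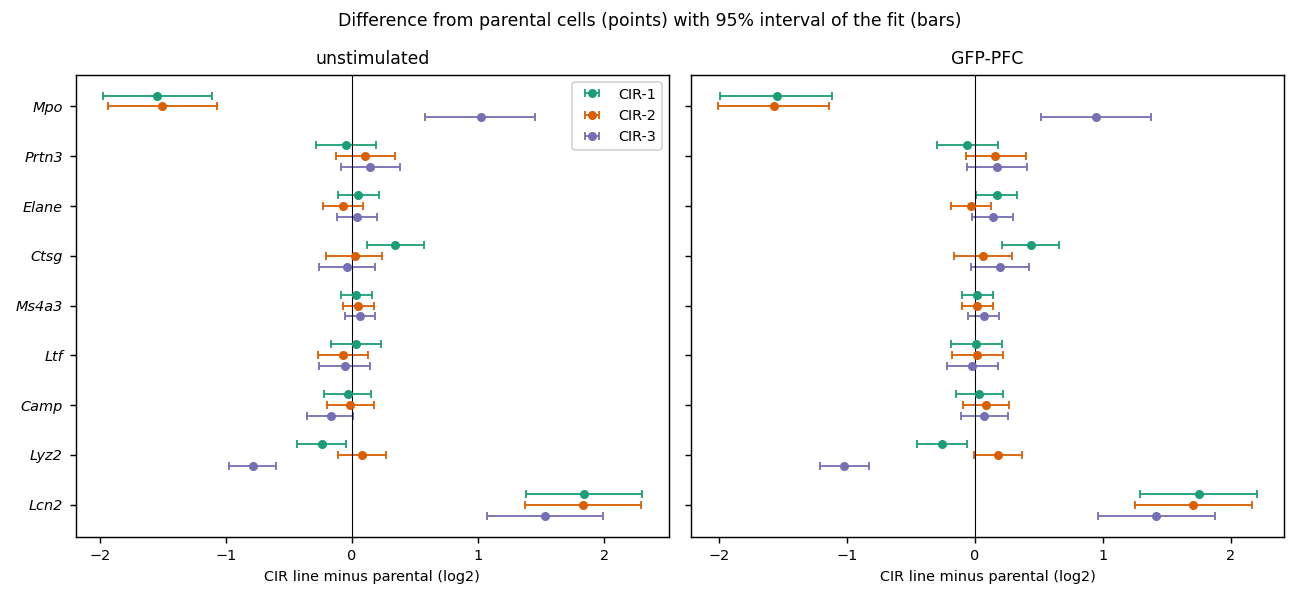
Points are the CIR line minus parental differences of the 9 genes (horizontal axis, log2) on the unstimulated arrays (left) and the GFP-PFC arrays (right), and bars are the 95% intervals of the fit. Lcn2 lies to the right of 0 in the 3 lines, Mpo to the left in CIR-1 and CIR-2 and to the right in CIR-3, and Lyz2 to the left in CIR-3, at -1.02 on the GFP-PFC arrays. The unstimulated panel is a description.

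Counted over the 9 genes on the GFP-PFC arrays, 3 were called in CIR-1 against parental cells (Lcn2 and Ctsg higher, Mpo lower), where 1.64% of all genes were called. In CIR-2 there were 2 (Lcn2 higher, Mpo lower), against 1.17% of all genes, and in CIR-3 there were 3 (Lcn2 and Mpo higher, Lyz2 lower), against 1.24%. CIR-2 against CIR-1 gave 1 (Lyz2), against 0.422%. CIR-3 against CIR-1 gave 2 (Mpo and Lyz2), against 1.04%, and CIR-3 against CIR-2 the same 2 genes, against 0.733%. The median difference of the 9 genes from parental cells was 0.02, 0.06 and 0.14 in CIR-1, CIR-2 and CIR-3, beside a median over all genes of 0.0037, 0.0036 and -0.012. Members moved both ways, so these medians do not describe single members. The 3 comparisons share the parental arrays. The members were chosen with such results known, so their share is a description.

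On the unstimulated arrays the counts against parental cells were 2 of 9 for CIR-1, 2 for CIR-2 and 3 for CIR-3, with 1.73%, 1.2% and 1.49% of all genes called. They were 0 for CIR-2 against CIR-1 (0.417%), 2 for CIR-3 against CIR-1 (1.18%) and 2 for CIR-3 against CIR-2 (0.763%). For the comparison without a member call, 876 of all genes and 2 members had an unadjusted p below 0.05 in limma. Nothing is read from these counts.

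None of the 9 genes was called changed after 1 h of stimulation, with or without the block for round. The rounds were assumed from the replicate numbers and are not named in the labels. Over the 9 genes and 5 stimulation comparisons (GFP-PFC in each of 4 lines and Hyper-IL-6 in parental cells), the 45 differences ran from -0.19 to 0.14. All 45 of the 95% intervals lay within -0.47 and 0.59, and the lowest adjusted p in limma was 0.928. Lcn2 after Hyper-IL-6 read 10.40, 10.24 and 10.15, within the range of the unstimulated parental arrays, and differed by 0.02 (95% interval -0.44 to 0.48). Mpo read 10.51, 10.45 and 10.58 and differed by 0.10 (-0.33 to 0.53). With GFP-PFC, Lcn2 differed by 0.13 in parental cells and by 0.04, 0.01 and 0.01 in CIR-1, CIR-2 and CIR-3.

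**Figure D4:**
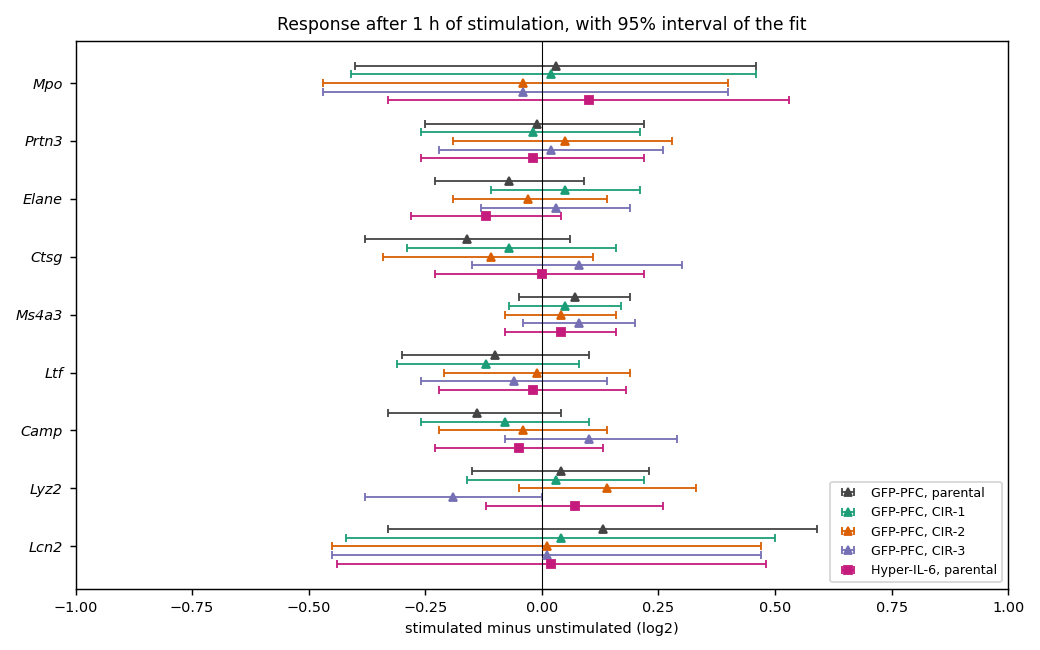
Points are the stimulated minus unstimulated differences of the 9 genes (horizontal axis, log2), as triangles for GFP-PFC in the 4 lines and squares for Hyper-IL-6 in parental cells, and bars are the 95% intervals of the fit. The points lie between -0.19 and 0.14.

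Among all genes 0% were called for GFP-PFC in each single line, where an unadjusted p below 0.05 in limma was found for 781 genes of the parental line, 489 of CIR-1, 264 of CIR-2 and 427 of CIR-3. Of the 9 members, 1 was among them, Lyz2 in CIR-3 at -0.19. The mean over the 4 lines called 0.221% of all genes and none of the 9, with 0 of the 9 below an unadjusted 0.05. With the block it called 151 genes, beside 44 without it, and again none of the 9. Between consecutive arrays of a line, the assumed pairs, Ms4a3 was higher with GFP-PFC in 11 of 12 and Ltf lower in 10 of 12. The other members were higher in 4 to 8 of 12. The share of all genes with such counts was not determined, so nothing is read from them. The mean differences of Ms4a3 and Ltf were 0.06 (95% interval 0.00 to 0.12, adjusted p = 0.801 in limma, 0.465 with the block) and -0.07 (-0.17 to 0.03, adjusted p = 0.944, 0.738 with the block). Hyper-IL-6 called 0.773% of all genes and none of the 9, again with 0 below an unadjusted 0.05. With the block it called 325 genes, beside 154 without it, and none of the 9. A moderated F-test found no gene whose GFP-PFC response differed among the 4 lines (0%, with 187 genes below an unadjusted 0.05), and the adjusted p of each of the 9 was 1. Among the stimulation comparisons Camp was called only when the arrays numbered 1 and 2 were left out, at -0.24 after Hyper-IL-6 (adjusted p = 0.00772) and -0.11 for the mean of the lines (adjusted p = 0.0372).

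Some genes listed as regulators were called after Hyper-IL-6. Of 10 listed granulocyte transcription factors 2 rose, Cebpd by 0.93 (SE 0.143, adjusted p = 0.000624) and Cebpb by 0.52 (SE 0.087, adjusted p = 0.00159), and none fell. Of 12 measured genes listed as receptors, inducers and iron partners of lipocalin 2, 1 rose, Nfkbiz, the gene of the NF-kB cofactor that Lcn2 induction needs, by 0.79 (SE 0.181, adjusted p = 0.0351). The median differences were 0.09 and 0.00, beside -0.013 over all genes. In the CIR lines none of these 12 was called against parental cells on the GFP-PFC arrays. Only RNA was measured, and the part of these genes in the rise of Lcn2 was not tested. In the fit with arrays paired by round as a block, Stat3 was called higher, by 0.22 in CIR-1 (adjusted p = 0.0234, 0.299 without the block) and by 0.21 in CIR-3 (0.0451, 0.427 without it). The block also called Runx1 after Hyper-IL-6, at 0.44 (adjusted p = 0.0216, 0.196 without it), although the Hyper-IL-6 arrays did not deviate with the unstimulated arrays of their round.

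The rest of the azurophil and promyelocyte list held 7 measured genes. Cst7, the gene of cystatin F, which inhibits granule cathepsins, was the 1 call in each CIR line on the GFP-PFC arrays, and it was lower in each. The differences were -0.80 for CIR-1 (adjusted p = 0.0141), -0.73 for CIR-2 (0.0419) and -0.87 for CIR-3 (0.00838). The medians of the list were -0.13, -0.05 and 0.00. Prss57, Ctsc and Gusb had GFP-PFC group means in the order of Mpo, without a call against parental cells. In CIR-3, parental cells, CIR-1 and CIR-2 Prss57 read 8.56, 8.37, 8.16 and 8.22. Ctsc read 12.30, 12.18, 12.05 and 12.13, and Gusb 12.11, 12.04, 12.01 and 12.03. Cst7, Bpi and Srgn did not have this order, and Plac8 read 12.90 in both CIR-3 and parental cells. The summed signal of the list ran from 36925 to 38313 on parental GFP-PFC arrays, 34335 to 35832 on CIR-1, 34466 to 37091 on CIR-2 and 37427 to 38141 on CIR-3 arrays. Srgn, the brightest gene of the list, weighs most in this sum.

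Of 12 specific granule genes, Cyba, the small subunit of the NADPH oxidase cytochrome, rose in each CIR line, by 0.57 in CIR-1 (adjusted p = 2.53e-05), 0.71 in CIR-2 (9.75e-07) and 0.74 in CIR-3 (3.59e-07). Pglyrp1, a peptidoglycan recognition protein, rose in CIR-2 by 0.58 (adjusted p = 0.0018). No other gene of the list was called against parental cells on these arrays, and the list's medians were -0.03, 0.09 and 0.04. With the block for round, Itgam was called too, lower in CIR-1 (difference -0.38, adjusted p = 0.0098, 0.0736 without it). Ngp, Chil3 and Mmp8, made late in neutrophil maturation, had group means of at most 6.01, 6.14 and 5.24, below the lower quartiles. Others of the list were brighter, with group means of 8.86 to 9.40 for Hp, 10.87 to 11.51 for Pglyrp1 and 7.67 to 7.83 for Cd177.

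Of 9 measured gelatinase granule and mature neutrophil genes, the chemokine receptor gene Cxcr2 was higher by 1.13 in CIR-1 (adjusted p = 0.00149) and 0.85 in CIR-2 (0.0277) and was lower in CIR-3 than in CIR-1 (difference -1.46, adjusted p = 8.05e-05). Retnlg, Ly6g and S100a8, which mark mature neutrophils, did not exceed 5.51, 5.43 and 6.11 in any group mean, below the lower quartiles. The rest of this list lay above them. Group means were 7.42 to 7.66 for S100a9, 7.51 to 7.69 for Mmp9 and 7.25 to 7.35 for Mmp25. They were 6.64 to 6.96 for Csf3r, 6.64 to 6.91 for Il1r2 and 9.75 to 11.33 for Cxcr2. Runx1, a factor of early blood cells, was the 1 call among the 10 granulocyte factors in the CIR lines, lower in CIR-3 (difference -1.04, adjusted p = 1.45e-05). With the block, Runx1 was also called in CIR-1 (difference -0.39, adjusted p = 0.0326, 0.194 without it), and Myb was called in CIR-2 (difference 0.32, adjusted p = 0.00622, 0.0768 without it). None of 8 measured inhibitors of neutrophil proteases was called in any CIR line on these arrays.

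Some of the listed markers of other blood cells also differed between the lines, while most were not called. Against parental cells 1.64%, 1.17% and 1.24% of all genes were called in CIR-1, CIR-2 and CIR-3 on the GFP-PFC arrays. Fcer1a, the IgE receptor chain of mast cells and basophils, fell from a mean of 9.37 in parental GFP-PFC cells to 5.15, 5.11 and 4.87 in CIR-1, CIR-2 and CIR-3, below the lower quartiles. Of 12 such markers it was the 1 called in CIR-1, while Hdc was also lower in CIR-2 and Gata2 was higher in CIR-3. The summed signal of the mast cell and basophil list ran from 10080 to 11503 on parental GFP-PFC arrays, 11296 to 12446 on CIR-1, 11666 to 12101 on CIR-2 and 11624 to 14471 on CIR-3 arrays. Gata2 makes up most of this sum, with means of 13.10 in parental cells and 13.32, 13.36 and 13.46 in the CIR lines. The median differences of the list were -0.01, -0.05 and -0.12, so the sum does not describe the list. Of 9 monocyte and macrophage markers 1 was called, Fcgr1, higher in CIR-1 by 0.56 (adjusted p = 0.0271), and the summed signals overlapped between the lines, at 2038 to 2078, 1963 to 2177, 1968 to 2060 and 1955 to 2233. Of 4 measured erythroid markers 3 were higher in CIR-1 (Klf1, Gata1 and Epor) and 1 in CIR-2 and CIR-3 (Epor). Of 7 eosinophil markers Epx was lower in CIR-1, and none of 6 T cell markers was called in any CIR line. Of the 13 pro-B cell markers, Cd79b was called higher in CIR-1 (0.29, adjusted p = 0.0308), and Cd79a was higher in CIR-3 than in CIR-2 (0.50, adjusted p = 0.0348). With the block for round, Hdc was also called lower in CIR-1 (-0.74, adjusted p = 0.0236, 0.109 without it), and Gata2 (0.26, adjusted p = 0.0302, 0.199 without it) and Klf1 (0.43, adjusted p = 0.00344, 0.176 without it) higher in CIR-2. The part of these cell types in the changes of Mpo, Lyz2 and Lcn2 was not tested.

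The genes whose 9 group means most resembled those of the 3 varying genes were taken from the 210 genes whose group means spanned at least 1. The points share the lines, so these correlations mostly describe 4 lines and carry no test. For Mpo they were Gzmb, the gene of granzyme B (r = 0.964), Abhd15 (0.962), Bex6 (0.956), Tent5a (0.949) and Epx, the eosinophil peroxidase (0.943). On the GFP-PFC arrays Gzmb was lower in CIR-1 (difference -1.29, adjusted p = 0.000616) and CIR-2 (-1.87, adjusted p = 3.61e-06), and its difference in CIR-3 was 0.52 (adjusted p = 0.46). For Lyz2 they were Slc24a5 (0.954), Inpp4b (0.932), Stat4 (0.919), Runx1 (0.86) and Npl (0.841). For Lcn2 they were the coagulation factor gene F10 (0.98), H2bc4 (0.976), Hivep1 (0.976), Tpst1 (0.967) and Inka1 (0.966). F10 was higher by 1.37, 1.33 and 1.30 in CIR-1, CIR-2 and CIR-3 (adjusted p of 2.23e-09, 2.54e-09 and 3.16e-09).

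Genes next to Mpo, Lcn2 and Lyz2 on the chromosome were examined after those values were seen, taking the 3 nearest measured protein-coding genes on each side. Around Mpo, the peroxidase genes Lpo and Epx lie on the same side, with Mks1 between them. On the GFP-PFC arrays Epx was lower in CIR-1 than in parental cells (difference -1.33, SE 0.262, adjusted p = 0.00456). It differed from them by -0.89 in CIR-2 (0.138) and by 0.17 in CIR-3 (0.99). Epx was higher in CIR-3 than in CIR-1 (difference 1.51, adjusted p = 0.00162). CIR-3 minus CIR-2 was 1.06 (adjusted p = 0.063, 0.0286 with the block). Lpo differed from parental cells by 0.00, -0.03 and -0.11 and was not called. The other 4 neighbours, Hsf5, Rnf43, Tspoap1 and Mks1, were not called in any CIR line. Around Lcn2, Ciz1, 1110008P14Rik, Ptges2, Slc25a25 and Naif1 were not called in any CIR line. Dnm1, the gene of a dynamin, was higher by 0.53 in CIR-1 (adjusted p = 0.000286) and 0.96 in CIR-3 (2.68e-08). It was not called in CIR-2, with a difference of 0.06. Dnm1 was also higher in CIR-3 than in CIR-1 (difference 0.43, adjusted p = 0.00379) and CIR-2 (difference 0.9, adjusted p = 1.02e-07). None of the 6 neighbours of Lyz2 was called in any CIR line. The cause of the differences at these positions was not tested.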

How the data were processed

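Gene-level and exon-level values of 27 arrays came from Affymetrix Expression Console, which the authors ran as a core-gene and a core-exon analysis, per the labels. Algorithm, normalization, log base and genome build are not given in the sources used here. The deposited values lay between 2.969 and 14.856 at gene level and were read as log2 signal, on which all folds rest. Of 35556 gene-level probe sets 21789 carried 1 symbol. The brightest per gene was kept, which gave 19920 genes. Elane was not matched at exon level, where 8 members were used.

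All 27 arrays entered 1 linear model with a mean for each group in limma 3.58.1 (R 4.3.3), with two-sided moderated tests and Benjamini-Hochberg adjustment over 19920 genes at 0.05. No dim probe sets were removed, and the number of arrays limits the precision.

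The members, the gene lists and the tests were chosen with earlier results of these data known. All 9 members are named. From each list up to 4 called genes per comparison could be named, largest difference first. For each member whose group means span 1 or more, the 5 most alike genes were named, by Pearson correlation of the group means. Gene positions come from RefSeq, GRCm38.p6.

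Replicate numbers were 1, 3 and 5 (unstimulated) and 2, 4 and 6 (stimulated). Deviations from group means correlated at 0.1362 to 0.7628 over 18 same-numbered unstimulated pairs, 0.2112 to 0.6153 over 18 GFP-PFC pairs and 0.2828 to 0.6331 over 12 consecutive pairs of a line, so the numbers were taken to pair these arrays by round. The reported fit has no block, and the fit with a block for round is an alternative, given beside a result where it changes the call. Pairing of consecutive numbers is assumed, and the 3 Hyper-IL-6 pairs correlated at -0.4634 to -0.2012. Alternatives were a replicate block, the compared arrays alone, exon-level values, all probe sets averaged, a dim filter, quantile normalization, and leaving out the arrays numbered 1 and 2 or each replicate.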

Additional observations from a re-analysis of the deposited data

How the results depend on the processing

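The 162 differences of the 9 genes were recomputed under the alternatives, and 2218 of 2250 values stayed on their side of the threshold, while 24 lost the call and 8 gained it. The 24 called differences kept their sign in all 312 values. Among the 138 uncalled differences 153 of 1938 values had the opposite sign, all where the reported difference was at most 0.13 in size. The adjusted p of the F-test stayed above the threshold in all 278 values. The fit with the replicate block, which pairs arrays by round, changed 0 of the member calls (for example 3 called in CIR-1 against parental cells on the GFP-PFC arrays, as without it), although calls over all genes in the 12 comparisons between lines rose from between 83 and 344 to between 160 and 701. With the compared arrays alone, the members called fell to 1 for CIR-1, 1 for CIR-2 and 2 for CIR-3 against parental cells (unstimulated), each by the loss of Mpo, and to 0 for CIR-2 minus CIR-1 (GFP-PFC). The CIR-3 count was also 2 without parental unstimulated replicate 3 or 5. For CIR-2 minus CIR-1 (GFP-PFC), exon-level values called 2, quantile normalization 0, and leaving out one replicate 0 to 1. Without the arrays numbered 1 and 2, 1 member was called for CIR-2 minus CIR-1 (unstimulated, Lyz2), 1 for the mean GFP-PFC response of 4 lines and 1 for Hyper-IL-6 (Camp in both). The cause of these changes was not tested. Signal near the lower quartile limits Ltf, Camp, Ctsg and Lyz2 in CIR-3.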
